A study of Sycon ciliatum with 26 samples.

Results

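The regenerating calcareous sponge Sycon ciliatum had 39 gene IDs, of 35307 counted, whose mean level was high between days 3 and 8 after dissociation and low both before and after. These 39 members were chosen by their window means in counts-per-million (CPM, 1000000 times a count over the total of its library). A member had a mean of at least 5 CPM both at days 3-4 and at days 6-8, and the lower of these means was at least 1.8 times each mean of day 1, day 2, days 16-18 and days 21-24. The last 4 are called the outer windows here, and the highest of their means the outer level of a member. Of the 35307 IDs, 11740 had both means at or above 5 CPM. Among these 11740, 967 stood at 1.8 times days 1 and 2, 369 at 1.8 times days 16-18 and 21-24, and 39 at both. Since the height at days 3-8 over the outer windows chose the members, it is given as a description without a test.

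The series holds mRNA libraries of structures that regenerate from dissociated cells of the sponge, and its title asks how regeneration relates to development after larval settlement. Regenerating structures were sampled at day 1 and day 2 (2 libraries each), days 3-4 and days 6-8 (6 each), days 10-14 (4), days 16-18 (3) and days 21-24 (2), and 1 further library, named the adult library below, came from the dissociated cells of a whole animal. The labels give a window and not the exact day of a library, and no larval library was analysed here. Nothing in the labels says whether the libraries of a window came from separate animals or cultures, so p-values measure the spread between these libraries, which may be technical.

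A calcareous sponge consists of a few kinds of cells, among them choanocytes, the collar cells whose flagella drive water through the body, pinacocytes, which cover its surfaces, and sclerocytes, which secrete the calcareous spicules. When such a sponge is pressed into single cells, the cells stick together again into aggregates, round up, form an outer layer and inner chambers, and in time open a new exhalant opening. The gene IDs of these counts carry no names: of 26717 genes in a RefSeq table of the species, 0 matched any of the 35307 IDs, so the members are given by ID, with no role, and cell types could not be checked by their markers. These are bulk libraries, in which fewer cells of a type and less RNA per cell cannot be told apart.

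Total counts were 7425481 to 15395912 in 25 of the 26 libraries and 26087749 in replicate 1 of day 1. At the smallest total, 5 CPM corresponds to 37.1 counts, so the members sat well above the level of single counts where they were high. A count of 0 allows up to 3 counts, or 0.115 to 0.404 CPM depending on the library, for counting error alone. CPM is not divided by gene length, so sums and rankings of members by CPM below compare reads and not numbers of transcripts.

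The summed level of the 39 members was 670 and 3593 CPM in the libraries of day 1, and 780 and 3306 CPM in those of day 2. It spanned 3201 to 15093 CPM at days 3-4, with a median of 7623, and 2242 to 19002 CPM at days 6-8, with a median of 9290. The libraries of days 10-14 had 2423, 1366, 9028 and 6605 CPM, those of days 16-18 had 975, 1540 and 1783 CPM, and those of days 21-24 had 897 and 726 CPM. The adult library had 2530 CPM. The sum was therefore highest in the middle windows, although the second library of day 1 and that of day 2 exceeded the lowest libraries of days 3-4 and 6-8. One ID, MSTRG.27656, held much of this sum. Without it the sums were 2309 to 4084 CPM at days 3-4 and 1566 to 5867 CPM at days 6-8, against 566 and 1329 CPM at day 1, 705 and 1486 CPM at day 2, and 556 to 1240 CPM at days 16-24.

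Most members stood above the outer windows by a modest factor. The lower mean of the 2 high windows was 5.24 to 5066 CPM over the members, with a median of 12.8 CPM, and it was 1.82 to 16.7 times the outer level, with a median of 2.19 times. In 11 members this ratio was under 2, and in 6 it was at least 5. That lower mean fell between 5 and 10 CPM in 17 members, between 10 and 100 CPM in 13 and at or above 100 CPM in 9. The highest outer window was days 16-18 in 17 members, day 2 in 10, day 1 in 8 and days 21-24 in 4. Days 6-8 had the higher mean in 22 members and days 3-4 in 17. The members thus differed in which outer window was highest and in which of the high windows was higher.

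The threshold cut through a continuous range of values. The last ID inside by ratio was MSTRG.16838, with 42.1 CPM over an outer level of 23.1 CPM, a ratio of 1.82, and the first outside was MSTRG.30422, with 6.25 over 3.49 CPM, a ratio of 1.79. By level, the lowest inside was MSTRG.14238 at 5.24 CPM. MSTRG.302, at 4.91 CPM, was the highest left outside although its ratio was 4.36.

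**Figure D1:**
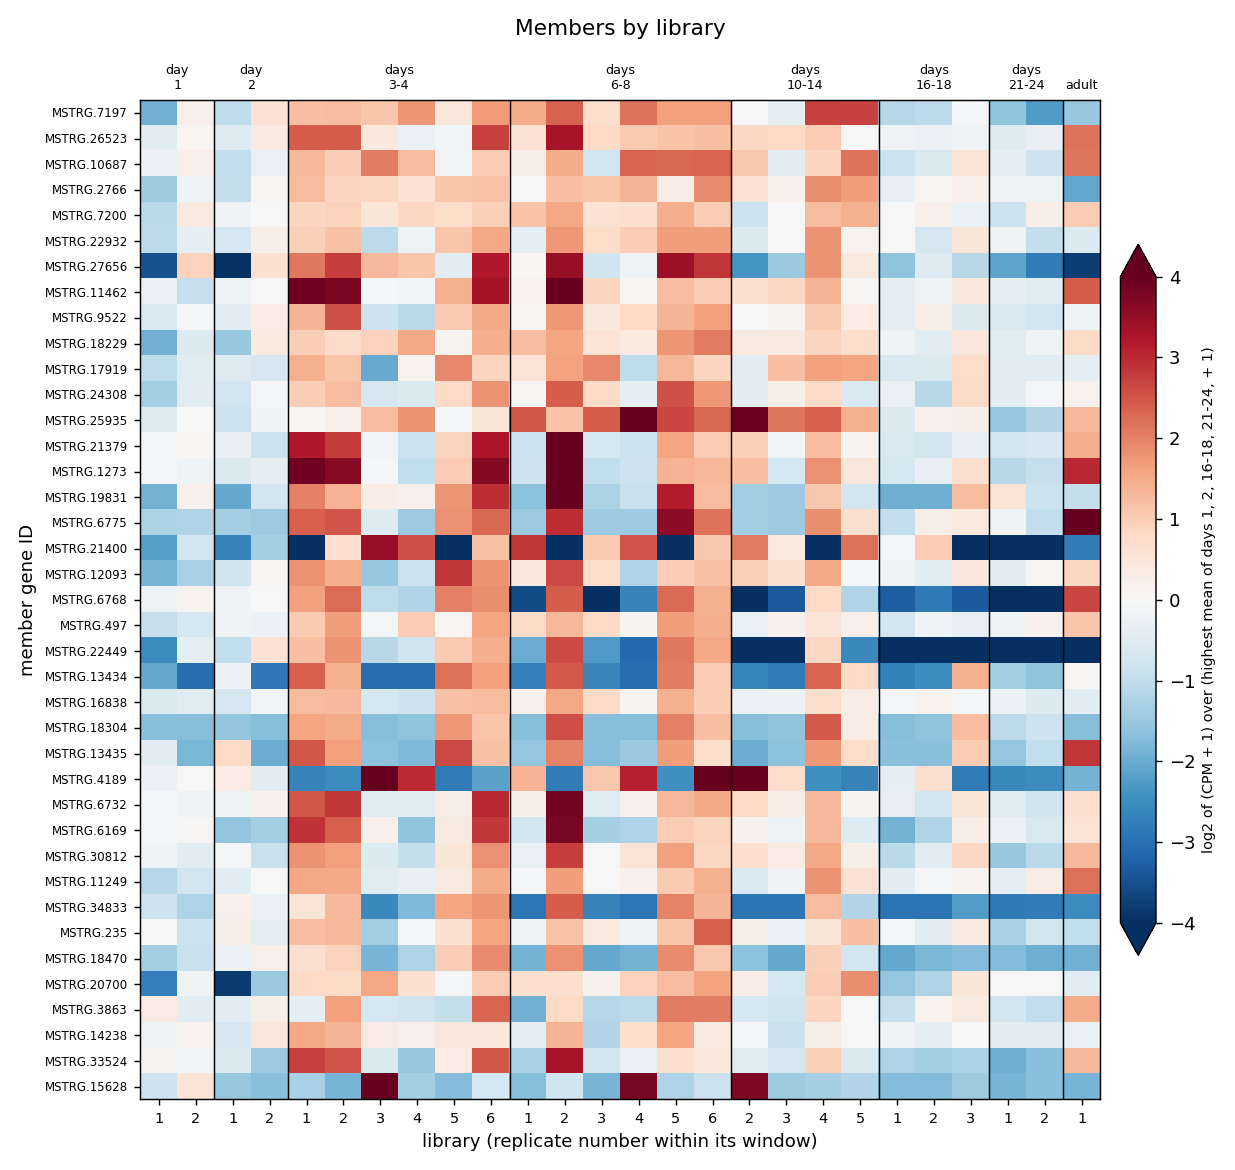
Level of each of the 39 members (rows, ordered by the number of libraries of days 3-8 at 1.8 times the outer level) in each of the 26 libraries (columns). Colour gives log2 of (CPM + 1) over (outer level + 1), and values beyond 4 or -4 have the end colours; replicates 1, 2 and 6 of days 3-4, replicates 2, 5 and 6 of days 6-8 and replicate 4 of days 10-14 are red in most rows.

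The members named below were taken by rule for their height, their total level, their calls in the tests and their levels at days 10-14 and in the adult library. MSTRG.27656 had 104 and 2265 CPM at day 1 and 75.0 and 1819 CPM at day 2. Its levels ran from 892 CPM (replicate 5) through a median of 3979 to 11009 CPM (replicate 6) at days 3-4, and from 676 CPM (replicate 3) through a median of 4943 to 13135 CPM (replicate 2) at days 6-8. Later libraries had 232, 424, 4122 and 1537 CPM at days 10-14, 386, 824 and 543 CPM at days 16-18, and 275 and 169.9 CPM at days 21-24. The groups overlapped, since the second libraries of days 1 and 2 were above replicate 5 of days 3-4 and above replicates 1, 3 and 4 of days 6-8. Its libraries of one window differed by more than an order of magnitude at days 1, 2, 3-4, 6-8 and 10-14.

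MSTRG.7197 varied less between libraries than the other members named by the rule, with a coefficient of variation (SD over mean) of 0.307 at days 3-4 and 0.37 at days 6-8. It had 129 and 561 CPM at day 1, 243 and 731 CPM at day 2, 666 to 1657 CPM with a median of 1133 at days 3-4, and 797 to 2496 CPM with a median of 1516 at days 6-8. At days 16-18 it had 220.1, 234 and 471 CPM, and at days 21-24 159 and 101 CPM. Among the 12 libraries of days 3-8, replicate 5 of days 3-4 at 666 CPM lay under the 731 CPM of the second library of day 2, and the other 11 lay above all 9 libraries of the outer windows. It reached 1.8 times its outer level in 10 of the 12 libraries, more than any other member.

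MSTRG.10687 had 139 and 187 CPM at day 1 and 82.3 and 132 CPM at day 2. Its range was 149.9 to 678 CPM with a median of 366 at days 3-4 and 96.6 to 827 CPM with a median of 636 at days 6-8. Later it had 89.7, 109 and 232 CPM at days 16-18 and 128 and 92.2 CPM at days 21-24. The groups overlapped through replicate 5 of days 3-4 and replicates 1 and 3 of days 6-8, which lay within the range of the outer windows.

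MSTRG.4189 had the greatest ratio, 16.7, and it rested on few libraries. Its 6 libraries of days 3-4, from replicate 1 to 6, had 0.0801, 0.177, 929, 54.2, 0 and 0.556 CPM, and those of days 6-8 had 16.9, 0, 13.7, 58.1, 0.265 and 500.4 CPM. At day 1 it had 4.87 and 5.8 CPM, at day 2 7.62 and 4.17 CPM, at days 16-18 4.43, 9.74 and 0 CPM, and at days 21-24 0.167 and 0.195 CPM. In 5 of the 12 libraries of days 3-8 it had at most 3 counts, a lower CPM than at days 1 and 2, while 2 libraries carried most of its mean. Without the third libraries of days 3-4 and 6-8 its ratio was 1.86, and on window medians in place of means it was 0.0621.

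At days 3-4 MSTRG.11462 had 1.82 CPM at the lowest (replicate 4), 18.1 at the median and 43.8 at the highest (replicate 1), and at days 6-8 it had 2.17 (replicate 4), 4.79 and 53.1 CPM (replicate 2). The outer windows had 1.53 and 0.61 CPM at day 1, 1.60 and 2.02 CPM at day 2, 1.29, 1.65 and 3.12 CPM at days 16-18, and 1.33 and 1.17 CPM at days 21-24. Its high values came from replicates 1, 2 and 6 of days 3-4 and replicate 2 of days 6-8, and the lowest libraries of both windows lay inside the range of the outer windows.

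MSTRG.21379 was highest in those same 4 libraries. At days 3-4 it ran from 0 (replicate 4) through a median of 6.94 to 16.3 CPM (replicate 6), and at days 6-8 from 0 (replicates 1 and 4) through a median of 1.36 to 33.5 CPM (replicate 2). In the outer windows it had 0.69 and 0.915 CPM at day 1, 0.443 and 0 at day 2, 0.161, 0.0786 and 0.421 at days 16-18, and 0.0833 and 0.13 at days 21-24. Both high windows held libraries with no count beside libraries far above the outer windows.

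**Figure D2:**
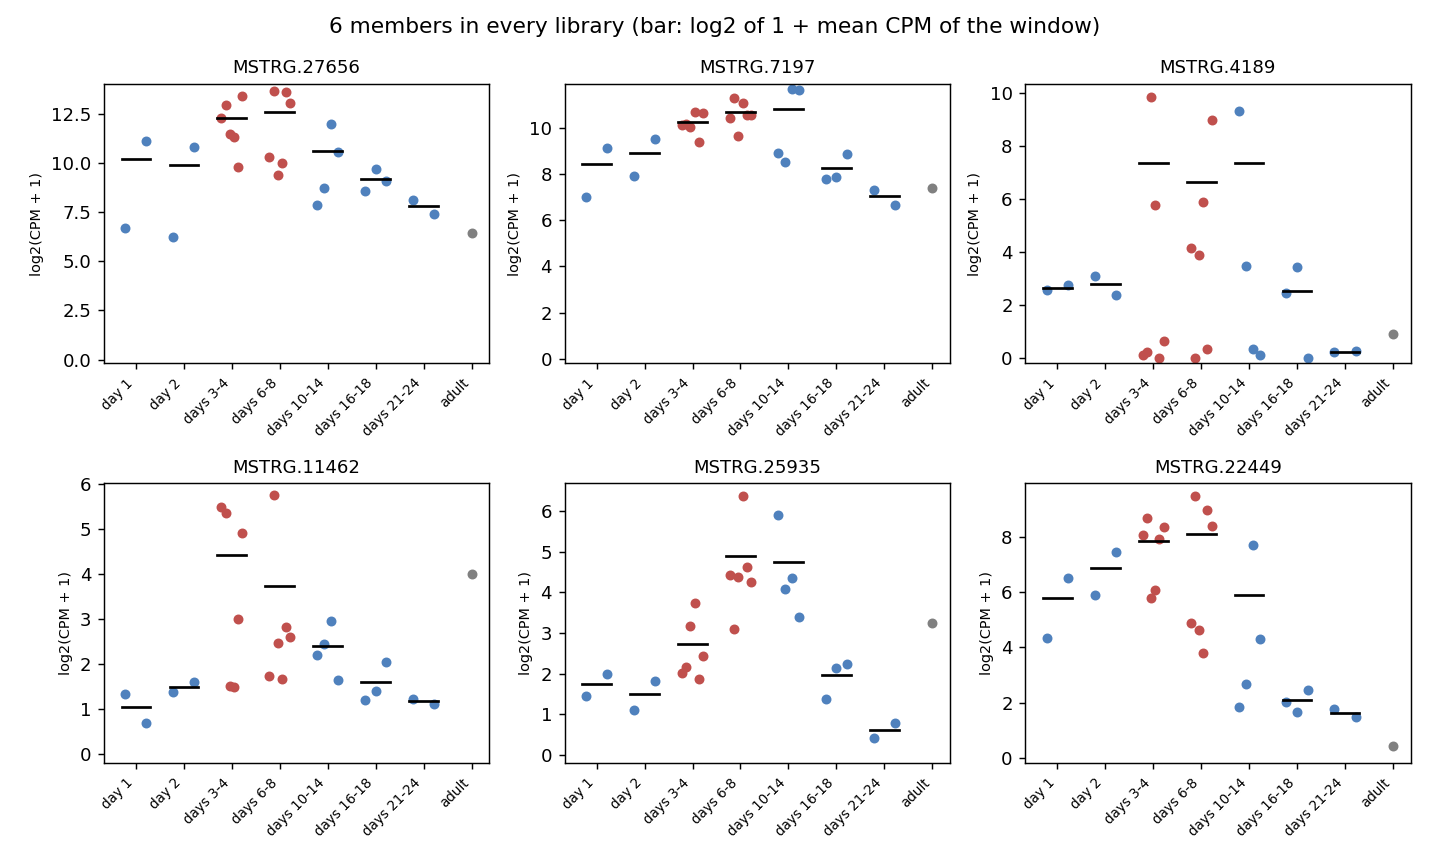
Levels of 6 members in every library, as log2(CPM + 1), by window; each point is a library, red for days 3-4 and 6-8, blue for the other regenerating windows and grey for the adult library, and each bar is the log2 of 1 plus the window mean. MSTRG.7197 keeps its 12 red points close together, while MSTRG.4189 has points from 0 to 929 CPM within days 3-4.

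The libraries of days 3-8 did not share the high level evenly. A rule on window means favours IDs that a few high libraries lift, so a wide spread within these windows is in part set by the choice and is given as a description. At 1.8 times the outer level stood 31, 33, 10, 9, 20 and 35 of the 39 members in replicates 1 to 6 of days 3-4, and 7, 35, 9, 12, 34 and 36 in replicates 1 to 6 of days 6-8. In the outer windows the number was 0 and 1 at day 1, 1 and 0 at day 2, 0, 1 and 9 at days 16-18, and 0 and 0 at days 21-24. Of all 11740 IDs at 5 CPM, 0.468% to 2.14% stood at 1.8 times their own outer level in each library of days 3-8. High and low libraries occurred in both windows, and the third library of days 16-18 held 9 such members, as many as replicate 4 of days 3-4 and replicate 3 of days 6-8. The shallowest of the 12, replicate 3 of days 3-4 with 7551436 counts, held 10 such members. Replicates 1, 3 and 4 of days 6-8, with 8976109, 9774218 and 9685571 counts, held 7, 9 and 12. Other libraries went the other way, as replicate 2 of days 6-8 with 8328070 counts held 35. Replicate 4 of days 3-4 with 12057145 counts held 9. Whether the number depended on depth was not tested.

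**Figure D3:**
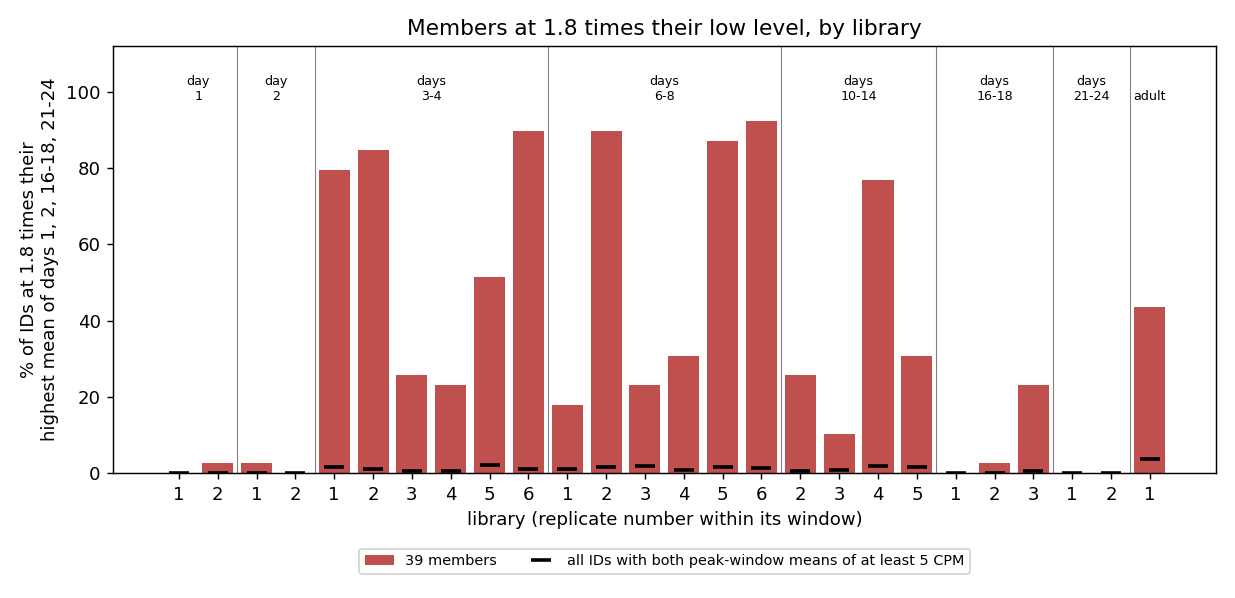
Share of the 39 members (bars) and of all 11740 IDs with both high-window means of at least 5 CPM (black marks) that stood at 1.8 times their own outer level in each library. The bars lie between 17.9% and 92.3% at days 3-8 and at 76.9% in replicate 4 of days 10-14, against at most 23.1% in the outer windows; the rule that chose the members used the libraries of days 3-8 and of the outer windows.

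No member stood at 1.8 times its outer level in all 12 libraries of days 3-8. The median member did so in 7, and 34 members did so in at least 6 and 13 in at least 8. In 36 members the lowest library of days 3-8 lay under the outer level, and 14 members had at most 3 counts in at least 1 of the 12. Within a window the coefficient of variation of the median member was 0.771 at days 3-4 and 1.05 at days 6-8, and 0.252 and 0.212 for the median of the 11740 IDs, a difference that the choice itself favours, since a library that lifts a mean also widens its spread. All 12 libraries of days 3-8 lay above all 9 of the outer windows in 1 member, MSTRG.7200, picked out here after its values were seen, and in 0.0256% of the 11740 IDs, a contrast the rule itself used. MSTRG.7200 had 5.43 to 7.87 CPM with a median of 7.17 at days 3-4 and 5.83 to 12.2 CPM with a median of 8.63 at days 6-8, against 1.15 and 4.88 CPM at day 1, 3.19 and 3.64 at day 2, 3.62, 4.32 and 2.78 at days 16-18, and 1.5 and 4.55 at days 21-24. On library totals scaled by TMM, the trimmed mean of M values of edgeR, no member had its groups apart in this way.

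Members differed in the libraries where they were high. A set of 16 members stood at 1.8 times the outer level in replicates 1, 2 and 6 of days 3-4 and replicates 2, 5 and 6 of days 6-8, and in none of replicates 3 and 4 of days 3-4 and 1, 3 and 4 of days 6-8. These 16, grouped after their values were seen, include MSTRG.21379, MSTRG.19831, MSTRG.6775, MSTRG.6768, MSTRG.22449 and MSTRG.13435. At days 10-14, which the rule did not use, 4, 0, 12 and 4 of the 16 stood at that level in replicates 2, 3, 4 and 5, against 10, 4, 30 and 12 of all 39 members, so replicate 4 held about the same share of the 16 as of the whole list. MSTRG.4189, MSTRG.21400 and MSTRG.25935 stood at 1.8 times their outer level in all 5 of the libraries where the 16 did not. MSTRG.25935 stood there also in replicates 2, 5 and 6 of days 6-8, where the 16 did too, and in all 4 libraries of days 10-14.

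MSTRG.21400 and MSTRG.15628, both picked out after their values were seen, are given as examples of members that varied widely from library to library. MSTRG.21400 had 0.16, 60.3, 439, 230.2, 0.0787 and 87.4 CPM in replicates 1 to 6 of days 3-4 and 284, 0.12, 79.7, 226, 0 and 82.7 CPM in those of days 6-8. Its libraries at days 10-14 had 167, 51.2, 1.13 and 179 CPM. MSTRG.15628 had 58.8 CPM in replicate 3 of days 3-4, 48.7 CPM in replicate 4 of days 6-8 and 46.8 CPM in replicate 2 of days 10-14, and at most 1.20 CPM in the other 13 libraries of days 3-14. For MSTRG.15628 the status as a member thus rested on 1 library in each high window. A pattern of presence and near absence between libraries of one window was not particular to these, and the libraries concerned were not the same throughout. MSTRG.4189, MSTRG.13434 and MSTRG.18304 had at most 3 counts in 5 of the 12 libraries of days 3-8. MSTRG.21400, MSTRG.15628 and other members, among them MSTRG.21379 and MSTRG.6775, had at most 3 counts in 4 of the 12. Whether the libraries of a window differ in animal, culture or exact day is not given in the sources used here, and the part of such differences in the result was not tested.

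The list depended on single libraries. Applying the rule again without 1 of the 25 regenerating libraries at a time gave 21 to 54 members. The smallest number came without replicate 2 of days 6-8, the library in which 20 of the 39 members had their highest level of days 3-8, and the largest without replicate 3 of days 16-18. In all 25 repeats 9 of the 39 met the rule, among them MSTRG.27656, MSTRG.10687, MSTRG.4189, MSTRG.19831 and MSTRG.6775, and 32 met it in at least 20. The 4 repeats without a library of days 10-14, which the rule did not use, had to return the same 39. Every member therefore met the rule in these 4 by design. Without the third libraries of days 3-4 and 6-8, an alternative added after seeing the data, the rule gave 56 members, of which 36 were among the 39.

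The labels number sample sets, and sets 1 and 2 each hold a library of day 1, day 2, days 3-4, days 6-8, days 16-18 and days 21-24, so members chosen without a set can be read in it. Each set has 1 library a window, which allows no test. Without set 1 the rule chose 34 members, 23 of them among the 39. In set 1 itself, 10 of these 34 (29.4%) had both libraries of days 3-8 above all 4 libraries of the outer windows, against 8.15% of the 11673 IDs at 5 CPM. Its library of days 3-4 alone lay above the outer ones in 24 of the 34 (70.6%, against 22.5%), and its library of days 6-8 in 13 (38.2%, against 19.1%). Without set 2 the rule chose 26 members, 16 of them among the 39. In set 2, 16 of the 26 (61.5%) had both libraries above all outer ones, against 12.5% of 11597 IDs. A ratio of 1.8 in both libraries was met by 2 of the 34 (5.88%, against 0.223%) in set 1 and by 7 of the 26 (26.9%, against 0.647%) in set 2. In both left-out sets a larger share of the members chosen without the set than of all such IDs was high at days 3-8. In set 1 most of them did not repeat the full pattern. The IDs at 5 CPM were not matched to the members for level or spread, so the difference in share is a description.

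Next the 2 high windows were compared with each other, a difference the rule did not require. Days 6-8 were set against days 3-4 with the quasi-likelihood F test of edgeR, fitted jointly to all 25 libraries of regenerating structures, two-sided, with p-values adjusted by Benjamini and Hochberg over 23995 tested IDs. All 39 members were among these IDs. At an adjusted p under 0.05, 1 of 39 members was called, MSTRG.25935, which was higher at days 6-8. Over all tested IDs 8.21% were called, 2.53% higher and 5.68% lower at days 6-8. No member was called lower, and 1 had an unadjusted p under 0.05. By sign, 21 members were fitted higher and 18 lower, with a median log2 fold change of 0.02. The rule set a lowest level for both windows but no bound on the ratio between them. The median absolute log2 fold change was 0.255 in members and 0.255 in the 11740 IDs at 5 CPM. Spread within both windows was wider in members, as given above. Why a smaller share of members was called was not tested.

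MSTRG.25935 had 7.56 CPM at the lowest (replicate 2), 20.2 at the median and 82.3 at the highest (replicate 4) of days 6-8, against 2.68 (replicate 5), 3.95 and 12.4 CPM (replicate 4) at days 3-4. Its mean was 28.7 ± 26.8 CPM at days 6-8 and 5.69 ± 3.84 CPM at days 3-4 (SD, n = 6 each). The groups overlapped, as replicate 2 of days 6-8 lay under replicates 3 and 4 of days 3-4. The fitted log2 fold change was 2.17 with an edgeR adjusted p of 0.0213, and 5 of the 6 libraries of days 6-8 lay above all 6 of days 3-4. The call was lost without replicate 4 of days 6-8, with a log2 fold change of 1.51 and an edgeR adjusted p of 0.0741, and without replicate 5 of days 3-4, with a log2 fold change of 2.01, close to that of all libraries, and an adjusted p of 0.0514. MSTRG.25935 stayed high at days 10-14, with 58.8, 16.1, 19.4 and 9.47 CPM, all above its 9 libraries of the outer windows, which reached 3.71 CPM.

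**Figure D4:**
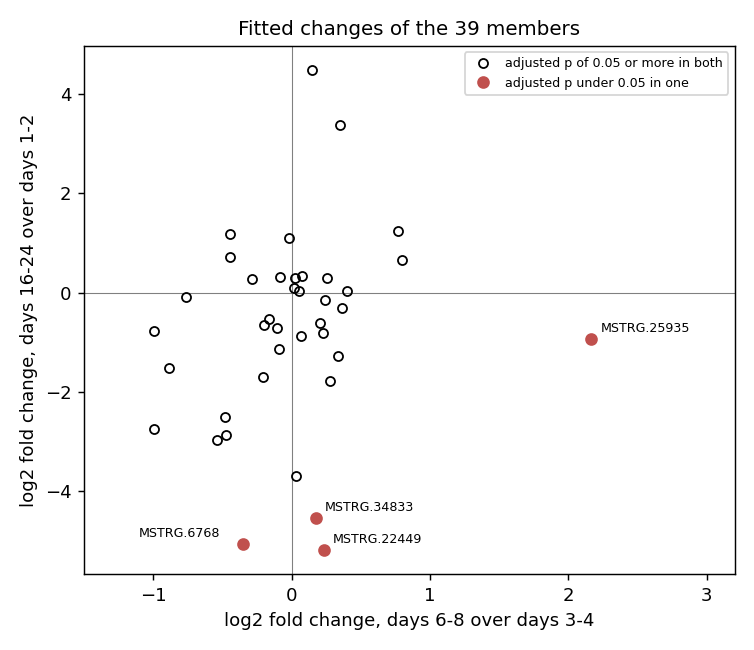
Fitted log2 fold changes of the 39 members between days 6-8 and days 3-4 (horizontal) and between days 16-24 and days 1-2 (vertical); filled points had an edgeR adjusted p under 0.05 in 1 of the comparisons. MSTRG.25935 is apart on the horizontal axis, and MSTRG.6768, MSTRG.22449 and MSTRG.34833 lie lowest on the vertical axis.

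The end of the course was then set against its start. The mean of days 16-18 and 21-24 was compared with the mean of days 1 and 2 in the same edgeR model. Of the 39 members 3 were called at an adjusted p under 0.05, all lower at days 16-24, and 6 had an unadjusted p under 0.05. Among all tested IDs 43.9% were called, 20.7% higher and 23.2% lower. The share of members called was thus below that of all IDs. The rule kept both ends low but set no bound on the ratio between them. The median absolute log2 fold change was 0.864 in members and 0.585 in the 11740 IDs at 5 CPM. Members thus did not differ less between the ends than these IDs. Why a smaller share of them was called was not tested. By sign, 24 members were fitted lower and 15 higher.

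MSTRG.22449 had 3.06, 2.12 and 4.47 CPM at days 16-18 and 2.42 and 1.75 CPM at days 21-24, against 19.4 and 90.5 CPM at day 1 and 59.0 and 175 CPM at day 2. The 5 late libraries lay below the 4 early ones without overlap, with a log2 fold change of -5.19 and an edgeR adjusted p of 0.00391. MSTRG.22449 was thus present from day 1, higher at days 3-4 (54.2 to 410.2 CPM, median 256) and days 6-8 (12.8 to 719 CPM, median 185) on average, and near its lowest from day 16 on.

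MSTRG.6768 had 13.3, 18.8 and 12.9 CPM at days 16-18 and 1.83 and 1.10 CPM at days 21-24, against 123 and 153 CPM at day 1 and 126 and 137 CPM at day 2. Again the late libraries lay below the early ones without overlap (log2 fold change -5.07, edgeR adjusted p 0.00558). Over the alternatives tried, the adjusted p of both MSTRG.6768 and MSTRG.22449 stayed under 0.05, the highest being 0.0455 and 0.0353. At days 3-8 MSTRG.6768 ranged from 3.27 CPM (replicate 3 of days 6-8) to 738 CPM (replicate 2 of days 6-8), with a median of 403 CPM over the 12 libraries.

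The third call was MSTRG.34833, which the rule for naming did not take and which is named because the count was small. It had 0.0806, 0.0786 and 0.759 CPM at days 16-18 and 0.167 and 0.195 CPM at days 21-24, against 3.68 and 2.54 CPM at day 1 and 8.60 and 5.93 CPM at day 2. The log2 fold change was -4.53 with an edgeR adjusted p of 0.0418, and over the alternatives the adjusted p ranged from 0.000106 to 0.129. It was not called in 10 of them, among them the fit with the title number as a block (log2 fold change -4.07, edgeR adjusted p 0.101), while the log2 fold change in these 10 was -4.66 to -4.07. MSTRG.6768, MSTRG.22449 and MSTRG.34833 were all lower at days 16-24 in every library.

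Days 10-14, between the high windows and the late ones, were left free by the rule. At the mean of its 4 libraries, 7 members were at or above the lower mean of days 3-4 and 6-8, 25 lay between that and the outer level, and 7 were at or below the outer level. Of all 11740 IDs at 5 CPM, 69.4% were at or above the lower mean, and 29.0% were below it and also at or below the outer level. In IDs other than members the outer level can exceed the lower mean. An ID that met both conditions was counted only as at or above the lower mean. The 29.0% is thus not the full share at or below the outer level and is no baseline for the members. The ratio of the mean at days 10-14 to the lower mean of the high windows was 0.20 to 4.56 over the members, with a median of 0.631. Most members had thus left their high level by days 10-14 on average but not reached their outer level. The members were chosen for a high value at days 3-8, so a share below that of all IDs is in part set by the choice.

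**Figure D5:**
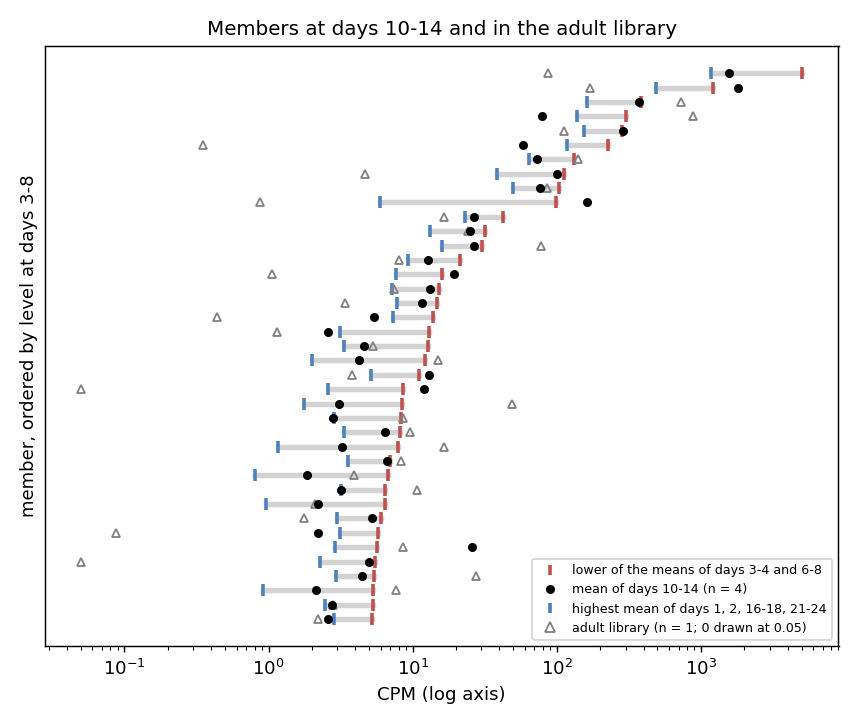
For each of the 39 members (rows, ordered by level), the lower mean of days 3-4 and 6-8 (red), the mean of days 10-14 (black), the outer level (blue) and the adult library (open triangle), in CPM on a log axis. Most black points fall on the grey line between red and blue, and the triangles scatter over a wider range than the points of days 10-14.

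The mean of days 10-14 was again a mean over unlike libraries. In replicates 2, 3, 4 and 5 the number of members at 1.8 times the outer level was 10, 4, 30 and 12, or 25.6%, 10.3%, 76.9% and 30.8%, against 0.622%, 0.92%, 1.89% and 1.67% of the 11740 IDs. The rule kept the outer level low for members and not for other IDs, so this difference is in part set by the choice. Replicate 4 was the highest of the 4 in 31 members (79.5%), against 40.8% of the 11740 IDs, replicate 5 in 5, replicate 2 in 3 and replicate 3 in 0. The median coefficient of variation was 0.753 over members and 0.245 over the 11740 IDs, and 37 of 39 members exceeded the latter. Spread within a window was larger in members than in IDs at 5 CPM also at days 10-14, which the rule did not use. A rule that favours IDs of wide spread can carry such a difference into another window, so it is given as a description. Without replicate 4, 17 members were at or below the outer level in place of 7, and without replicate 3, 14 members were at or above the lower mean of the high windows in place of 7.

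MSTRG.25935 (ratio 4.56) and MSTRG.4189 (ratio 1.66) stood highest at days 10-14 relative to days 3-8. MSTRG.4189 had 642, 10.2, 0.262 and 0.0861 CPM in replicates 2 to 5, so that a single library made its mean. The lowest ratios were those of MSTRG.19831 (0.20) and MSTRG.22449 (0.257). MSTRG.19831 had 0.589, 0.50, 7.76 and 1.46 CPM at days 10-14, against 3.82 to 30.9 CPM (median 11.5) at days 3-4 and 0.334 to 88.7 CPM (median 5.15) at days 6-8. MSTRG.22449 had 2.61, 5.33, 208 and 18.9 CPM at days 10-14. In both, replicate 4 was highest and lay within the range of days 3-8. In MSTRG.22449 it lay above all 5 libraries of days 16-24, whereas in MSTRG.19831 it lay within their range, which was 0.0806, 0.0786 and 8.94 CPM at days 16-18 and 5.0 and 1.3 CPM at days 21-24.

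The adult library, with no replicate, had 14 members at or above the lower mean of days 3-4 and 6-8, 7 between and 18 at or below the outer level. The shares over the 11740 IDs were 35.6% at or above and 64.0% at or below. At 1.8 times the outer level stood 17 members (43.6%), against 3.62% of the 11740 IDs. Any member at or above its lower high mean is at that level by the rule, whereas other IDs need not be, so the shares of members and of all IDs do not measure the same step. The share of members at or above the lower high mean was close to that of all IDs. In this 1 library the 17 members stood above their outer level, which can still be a low level. MSTRG.6732, picked out here after its values were seen, is 1 of the 17. It had 2.11 CPM in the adult library, against a lower high mean of 6.38 CPM.

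Relative to the lower mean of days 3-4 and 6-8, the members highest in the adult library were MSTRG.6775 and MSTRG.13435. MSTRG.6775 had 49.2 CPM there (exact 95% interval for counting error 45.2 to 53.5), 5.82 times its lower high mean of 8.46 CPM. It had 0 to 14.8 CPM with a median of 10.7 at days 3-4 and 0 to 32.4 CPM with a median of 5.75 at days 6-8, against 0.153 and 0.203 CPM at day 1, 0.0886 and 0 at day 2, 0.403, 2.28 and 2.61 at days 16-18 and 1.5 and 0.39 at days 21-24. The adult level exceeded every one of the 25 regenerating libraries.

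MSTRG.13435 had 27.5 CPM in the adult library (exact 95% interval 24.5 to 30.7), 5.05 times its lower high mean of 5.44 CPM. It had 0.166 to 23.4 CPM with a median of 9.52 at days 3-4 and 0.205 to 14.6 CPM with a median of 2.92 at days 6-8, against 1.88 and 0.102 CPM at day 1, 5.85 and 0 at day 2, 0.242, 0.236 and 6.91 at days 16-18 and 0.333 and 0.974 at days 21-24. This member too was higher in the adult library than in any regenerating one. In contrast, MSTRG.22449 had 0.351 CPM in the adult library (4 counts, exact 95% interval 0.0956 to 0.899) and MSTRG.6768, which fell with it between days 1-2 and days 16-24, had 885 CPM (868 to 903).

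Of the members, 2 of 39 (5.13%) had another member at the next ID number, MSTRG.13434 and MSTRG.13435, against 22 of 11701 other IDs at 5 CPM (0.188%) with a member beside them. Both were at 1.8 times the outer level in the same libraries of days 3-8. MSTRG.13434 had 41.8, 21.0, 0, 0, 36.1 and 24.2 CPM in replicates 1 to 6 of days 3-4, and MSTRG.13435 had 20.8, 11.2, 0.265, 0.166, 23.4 and 7.87 CPM. At days 6-8 they had 0.223, 43.2, 0.307, 0, 32.6 and 15.2 CPM and 0.334, 14.6, 0.205, 0.413, 11.6 and 5.43 CPM. Whether these neighbouring IDs belong to 1 gene or share reads was not tested.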

How the data were processed

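The deposited values are whole-number counts of reads for each gene ID, with a separate table for every library. Per the submitters' processing notes, Trimmomatic 0.36, HISAT2, StringTie, featureCounts, DESeq2 and Bowtie2 were named, with no role or order; the genome build and the strand setting are not given in the sources used here. Per the labels' protocols, RNA was extracted with Trizol and libraries were made with a Lexogen SENSE mRNA kit. The prefix MSTRG is that of StringTie's merged gene models, which can split a gene or join neighbours, so the counts of a single ID are uncertain to that degree.

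From the counts, CPM on library totals gave the members and all levels. Tests used edgeR 4.0.16 (limma 3.58.1, R 4.3.3): filterByExpr, which left out 11312 of 35307 IDs, TMM, and glmQLFit with robust estimation on the 25 regenerating libraries with the window as the only factor (common dispersion 0.173). The fit was tested on simulated data, in which the counts of each ID were drawn independently. Differences between libraries that many members share were not part of that simulation. DESeq2 1.42.0 was an alternative. Descriptions used Python 3.11.15, pandas 2.3.3, NumPy 2.4.6 and SciPy 1.17.1, and exact intervals cover counting error only.

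The members, the rule and the tests were chosen with earlier results of these data known. Named members were the 4 of largest lower high mean over (outer level + 1), the 3 of highest mean CPM at days 3-8, up to 2 of lowest adjusted p per direction among called members in each test, the 2 highest and 2 lowest at days 10-14 relative to the lower high mean, and the 2 highest in the adult library on the same scale. At days 10-14 titles number the libraries 2 to 5 and set labels 1 to 4; titles are used here. No sequence is shown because no source used here links these IDs to one.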

Additional observations from a re-analysis of the deposited data

Results flagged for a closer look

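Of 42 sets of 4 or 6 libraries of one window, 8 held a library far from the nearest of the others relative to the range of the set (Dixon's 95% limit). Chance gives about 1 in 20 for sets not selected on their values, a rate that cannot be set against these 8 flags. Of them, 5 were at days 3-4 and 6-8, the windows whose means chose the members. The other 3 were at days 10-14, in members named by the rule for their level in that window. In MSTRG.4189 replicate 3 of days 3-4 stood apart with 929 CPM, against 0 to 54.2 CPM in the other libraries. So did replicate 6 of days 6-8 with 500.4 CPM, against 0 to 58.1 CPM, and replicate 2 of days 10-14 with 642 CPM, against 0.0861 to 10.2 CPM. Replicate 2 of days 6-8 stood apart in MSTRG.11462, with 53.1 CPM against 2.17 to 6.10 CPM, and in MSTRG.21379, with 33.5 CPM against 0 to 4.42 CPM. Replicate 4 of days 10-14 stood apart in MSTRG.19831, with 7.76 CPM against 0.50 to 1.46 CPM, and in MSTRG.22449, with 208 CPM against 2.61 to 18.9 CPM. In MSTRG.25935 it was replicate 4 of days 6-8, with 82.3 CPM against 7.56 to 23.6 CPM.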

How the results depend on the processing

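The number of members followed the thresholds, with 101 at 1 CPM, 22 at 10 CPM, 72 at 1.5 times and 13 at 2.5 times, against 39. It was 36 with TMM or DESeq2 size factors (32 shared), 28 with window medians (18 shared), 56 without the third libraries of days 3-4 and 6-8, and 21 to 54 without single libraries. Under window medians the ratio of MSTRG.4189 fell below 1, to 0.0621, and the members at or below the outer level at days 10-14 numbered 14. Without single libraries of days 10-14 these numbered 4 to 17, and those at or above the lower high mean 7 to 14. Groups of days 3-8 and of the outer windows stood apart in 0 members under TMM.

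For days 6-8 against days 3-4, 1 member was called under all 10 alternatives of scaling, filter, test and block and with the third libraries left out, and 0 to 2 without single libraries, the second being MSTRG.11462 without replicate 2 of days 6-8. For days 16-24 against days 1-2, 7 were called in a fit of only the libraries compared, 6 by the DESeq2 Wald test, 4 without the third libraries and 2 to 4 without single libraries, and the cause was not tested. The replicate number as a block left 1 call in the first comparison and 2 (title number) or 3 (set number) in the second. Same-numbered libraries of days 6-8 and 3-4 correlated at -0.203 to 0.228 in their deviations from the window means, and 1 of 6 correlated best with its own number, so the numbers were not taken as pairs.

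Windows of 2 or 3 libraries limit every outer level, and depth limits members near 5 CPM.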
